A study of Ovis aries with 6 samples.

Results

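Vascular smooth muscle cells were taken from single-cell libraries of the ovaries of 6 Hu ewes by a rule on a few marker genes, and 953 of 38465 barcodes that passed the quality limits met it. The rule kept barcodes with at least 1000 unique molecular identifiers (UMI, 1 per captured RNA molecule) and at most 10% mitochondrial UMI. They had to hold at least 5 UMI of ACTA2 plus TAGLN, the smooth muscle actin and transgelin, and at least 3 times the UMI of the endothelial and leukocyte genes PECAM1, KDR and PTPRC. Among the 7346 barcodes that met this condition, members were those in which the sum of FHL5, KCNA5, NTRK3 and CLDN10 was at least 1 UMI and above the sum of the pericyte genes KCNJ8, ABCC9 and HIGD1B. Members made up 2.48% of the passing barcodes and 13.0% of the ACTA2 and TAGLN barcodes. The same gate with the inequality turned, pericyte genes at least 1 UMI and above the other sum, gave 1226 pericytes, and 5167 barcodes were in neither class.

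The libraries came from a whole ovary of each ewe, collected at estrus and digested with collagenase and trypsin, and compared 3 ewes of high litter size (HLS, litters of at least 3 lambs) with 3 of low litter size (LLS, litters below 2). All ewes were of the same breed, estrus was found with a ram, and the labels name no treatment. Each ewe was 1 library of the 10x Chromium 3' v3 assay, so the ewe was the replicate.

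Smooth muscle cells wrap the arteries and arterioles in rings and set their width by contracting on actin and myosin filaments, under the control of calcium, nitric oxide and circulating peptides. Pericytes lie on the capillaries, share the basement membrane of the endothelium and contract less. Both lineages are called mural cells, and in the ovary the vessels that they line are rebuilt around growing follicles in each cycle.

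Members per ewe numbered 123, 199 and 269 in HLS replicates 1, 2 and 3 and 167, 67 and 128 in LLS replicates 1, 2 and 3. Their median depth was 3037 UMI, against 6549 UMI in pericytes and 7114 UMI in all passing barcodes, and the medians per ewe lay between 2590 and 5499 UMI. The UMI summed over the members of an ewe ranged from 359361 to 1083150. A doublet caller marked 3.46% of the members, 5.79% of the pericytes and 5.22% of the passing barcodes, and the marked barcodes were kept in the main values. Of the members, 5 carried a barcode sequence that also passed in another library, and 0 barcode sequences were members in more than 1 library. HLS replicate 1 stood apart, with 22.3% of member UMI in ribosomal protein genes against 13.4% to 15.6% in the other ewes, and its members had the highest median depth. Its pericytes shared the ribosomal excess, at 22.6% of UMI against 13.3% to 14.6% in the other ewes.

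The genes of the rule are described first, without a test, since they chose the members. CLDN10, a claudin of tight junctions, was detected in 682 members (71.6%). NTRK3, the receptor of neurotrophin 3, was detected in 335 (35.2%), KCNA5, a voltage-gated potassium channel of arterial muscle, in 293 (30.7%), and FHL5, a partner of CREB family transcription factors, in 249 (26.1%). Barcodes gated as endothelium held at least 3 UMI of PECAM1 plus KDR, no PTPRC and under 3 UMI of PDGFRA plus DCN. They also lay outside the ACTA2 and TAGLN gate. These barcodes should lack the 4 genes and had a median of 9690 UMI. Their shares were 0.569%, 0.194%, 0.201% and 0.187% in the same order. The members held 325 barcodes with a single UMI of the 4 genes, 224 with 2 and 404 with at least 3, and 19 members held all 4 genes. At least 2 of the 4 genes were found in 456 members, so that about as many rested on a single gene.

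KCNA5 stood at 0.404, 1.39 and 1.45 UMI per 10000 UMI in HLS replicates 1 to 3 and at 0.821, 0.696 and 1.05 in LLS replicates 1 to 3. FHL5 stood at 0.452, 0.667 and 1.03 in HLS and between 0.890 and 1.34 in LLS. CLDN10 stood at 2.20, 3.33 and 3.69 in HLS and between 2.78 and 3.29 in LLS. HLS replicate 1 was the lowest ewe for each of these genes, and the groups overlapped for each.

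Smooth muscle genes that the rule did not use were high in the members of every ewe. MYH11, the smooth muscle myosin heavy chain, was at 14.1, 40.0 and 32.2 UMI per 10000 in HLS replicates 1 to 3 and at 34.4, 31.7 and 25.8 in LLS replicates 1 to 3. In pericytes of the same ewes it was at 4.58 to 9.46, and the mean over ewes was 29.7 ± 8.92 (SD, n = 6) in members against 7.36 ± 1.81 in pericytes and 7.58 in the barcodes of neither class. No ewe's pericytes reached the members of any ewe. PLN, which restrains the calcium pump of the sarcoplasmic reticulum, averaged 5.51 ± 1.32 in members and 1.50 ± 0.281 in pericytes. MYOCD, the coactivator of serum response factor that switches on contractile genes, averaged 0.937 ± 0.341 against 0.240 ± 0.0461. LMOD1, an actin filament nucleator of smooth muscle, averaged 1.47 ± 0.376 against 0.520 ± 0.161, and CNN1, calponin, 2.56 ± 0.678 against 1.02 ± 0.146.

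Several other genes of the contractile apparatus did not set the members apart. ACTG2, the enteric smooth muscle actin, averaged 1.48 ± 0.476 in members, 1.71 ± 0.566 in pericytes and 2.46 in the barcodes of neither class. DES, desmin, averaged 0.712 ± 0.228 in members and 0.731 ± 0.460 in pericytes, and SMTN, smoothelin, 1.50 ± 0.372 and 1.76 ± 0.442. The pericyte gene RGS5, a regulator of G protein signalling, was still present in members, at 2.79 to 11.5 UMI per 10000, against 7.20 to 28.8 in pericytes and a mean of 0.602 in neither class. Members thus carried the myosin, calponin and myocardin programme more strongly than pericytes, with desmin, smoothelin and enteric actin at like levels.

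**Figure D1:**
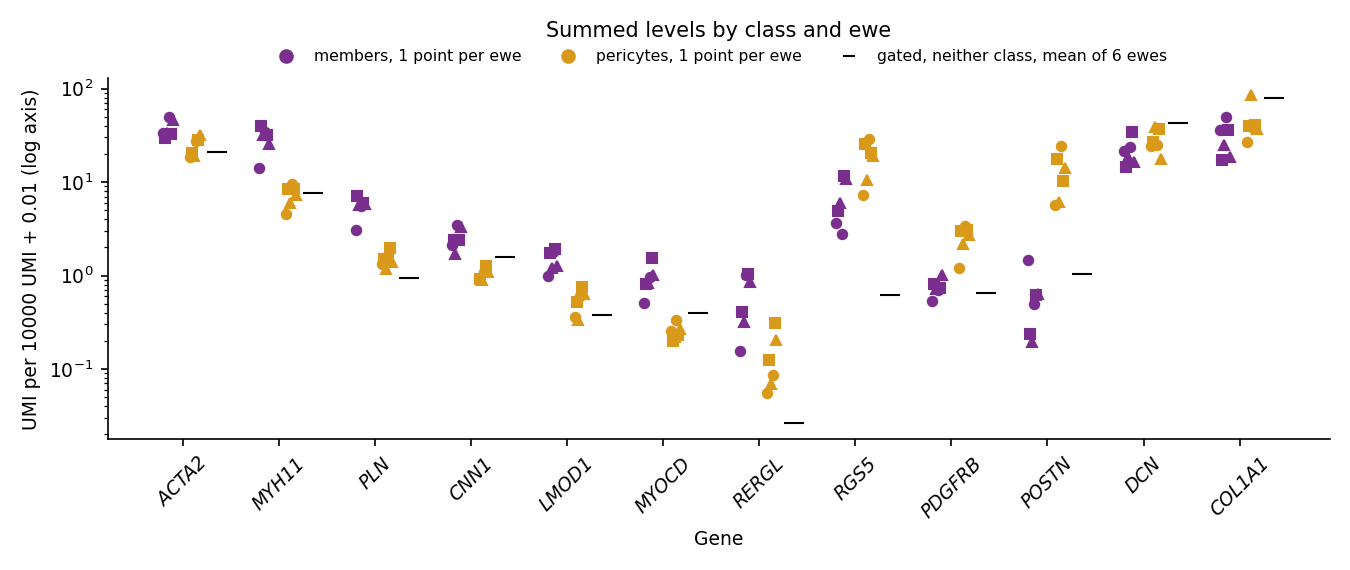
Level of 12 genes in UMI per 10000 UMI (log axis, 0.01 added) in members and pericytes, 1 point per ewe, with circle, square and triangle for replicates 1, 2 and 3 of each group and a dash for the mean of the gated barcodes of neither class. MYH11 lies at 14.1 to 40.0 in members and at 4.58 to 9.46 in pericytes, and POSTN lies at most at 1.47 in members and at least at 5.62 in pericytes.

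Markers of other cells were present at different levels. Summed over 12 endothelial genes, members stood at 2.00 to 4.09 UMI per 10000 and pericytes at 1.69 to 4.78. Summed over 11 stromal genes, which include DCN and PDGFRA, members stood at 23.7 to 48.5, pericytes at 29.2 to 54.8 and barcodes of neither class at 45.3 to 81.5. Of 11 immune genes 1 was at 0 in members and their sum was 0.163 to 4.02, highest in HLS replicate 3, where CD74 was at 1.52 UMI per 10000 against 0.0289 to 0.195 in the other ewes. Of 5 Schwann cell genes 3 were at 0 in members, and both haemoglobin genes were at 0. The part of other cells' RNA in the results below was not tested beyond the alternatives given beside them.

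The members were not uniform. Members that held at least 2 of the 4 genes of the rule (456 barcodes) had a pooled MYH11 level of 41.9 UMI per 10000, a PLN level of 7.96, a DCN level of 6.07 and a COL1A1 level of 8.35. Members with a single UMI of the 4 genes (325 barcodes) had a MYH11 level of 15.9, a PLN level of 2.62, a DCN level of 35.8 and a COL1A1 level of 57.0. DCN and COL1A1 encode decorin and the fibrillar collagen chain of connective tissue. The barcodes of neither class averaged 43.3 for DCN and 79.3 for COL1A1 over the ewes.

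The gene that admitted a barcode also mattered. The 115 members admitted by NTRK3 alone had a pooled MYH11 level of 11.5, a PLN level of 1.62 and a DCN level of 53.9. Members admitted by KCNA5 alone (52 barcodes) had a MYH11 level of 29.5 and a DCN level of 17.6. Those admitted by FHL5 alone (49) had 23.4 and 23.2, and those by CLDN10 alone (281) 22.0 and 19.5. The barcodes admitted by NTRK3 alone thus had less myosin than any other subgroup of members shown, and their DCN level was above the mean of the barcodes of neither class. Their smooth muscle label rests on the rule more than on these genes.

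Depth split the members in the same sense. The 468 members under 3000 UMI had a MYH11 level of 41.9, a COL1A1 level of 4.18 and a DCN level of 7.78. The 485 deeper members had a MYH11 level of 24.5, a COL1A1 level of 38.3 and a DCN level of 24.2. The shallow members therefore carried the larger share of myosin and the smaller share of collagen, and only 15 of the 123 members of HLS replicate 1 were among them.

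**Figure D2:**
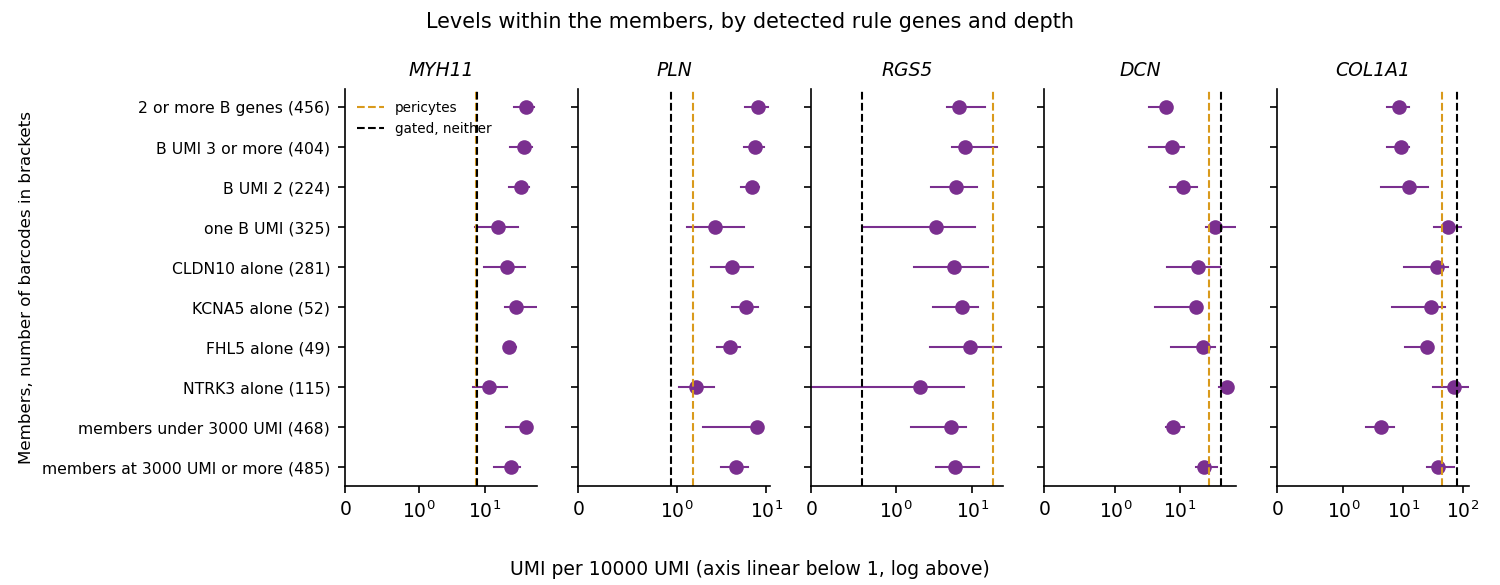
Pooled level of 5 genes in UMI per 10000 UMI (linear below 1, log above) for members split by how many UMI of FHL5, KCNA5, NTRK3 and CLDN10 (written B) they held, by the single gene that admitted them, and by depth; points pool the barcodes, lines span the lowest and highest ewe with at least 10 barcodes, and dashed lines are the means of pericytes and of gated barcodes in neither class. Members admitted by NTRK3 alone have the lowest MYH11 (11.5) and the highest DCN (53.9).

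Just inside the rule, 356 members exceeded the pericyte sum by 1 UMI, with a pooled MYH11 level of 17.0 and an RGS5 level of 4.45. Just outside it, the 60 barcodes with equal sums had a MYH11 level of 13.2 and an RGS5 level of 16.7. The 511 barcodes in which the pericyte sum was 1 UMI higher had 8.46 and 5.53, and they belonged to the 1226 pericytes. Pooled DCN and COL1A1 levels were 33.9 and 53.8 in the 356 members and 17.3 and 48.8 at equal sums. In the 511 pericytes they were 44.2 and 70.7. At the other threshold, 119 members with 5 to 7 UMI of ACTA2 plus TAGLN had a MYH11 level of 14.7, and 137 barcodes excluded with 2 to 4 UMI had 8.85.

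The number of members followed neither litter size group cleanly. Members were 2.18%, 2.69% and 4.62% of the passing barcodes in HLS replicates 1 to 3 and 2.53%, 1.24% and 1.69% in LLS replicates 1 to 3. The highest ewe was HLS replicate 3 and the lowest LLS replicate 2, with the groups overlapping at LLS replicate 1. The means were 3.16% ± 1.29 (SD, n = 3) and 1.82% ± 0.654, a difference of 1.34 percentage points that did not pass (two-sided exact permutation test over ewes, p = 0.2, adjusted p = 0.4 over 2 shares). Among mural barcodes, that is members plus pericytes, members made up 31.0%, 47.3% and 69.9% in HLS replicates 1 to 3, against 42.4%, 31.5% and 34.7% in LLS replicates 1 to 3. The means of 49.4% ± 19.5 and 36.2% ± 5.62 differed by 13.2 points (exact permutation p = 0.4, adjusted p = 0.4). With 3 ewes against 3 the test cannot go below 0.1. Without HLS replicate 3 the differences were 0.614 and 2.95 points, without HLS replicate 1 the difference among mural barcodes was 22.4 points, and after every barcode was thinned to 1000 UMI the difference among passing barcodes was 0.466 points (exact permutation p = 0.5).

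**Figure D3:**
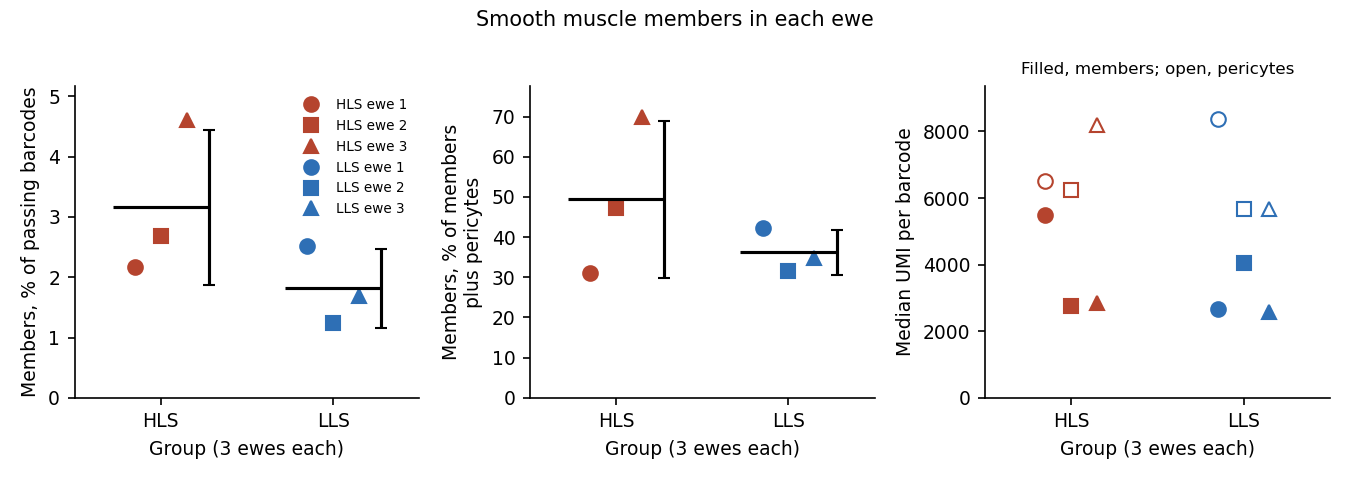
Members as a percentage of passing barcodes and of mural barcodes (members plus pericytes), and median UMI per barcode in members (filled) and pericytes (open), 1 point per ewe; lines and bars are the mean and SD of 3 ewes. HLS replicate 3 is the highest for both shares (4.62% and 69.9%), and the remaining HLS ewes lie within or near the LLS range.

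Members and pericytes of the same ewe were then set side by side across 3654 genes with a level of at least 0.5 UMI per 10000 in the higher class, the genes of the rule left out. The classes were chosen on these cells, so the comparison is a description with no test. At least 2 times higher on average and higher in all 6 ewes were 135 genes (3.69%), and at least 2 times lower and lower in all 6 were 112 (3.07%). At any size, 643 genes were higher in all 6 ewes (17.6%) and 721 lower in all 6 (19.7%). Without HLS replicate 1 there were 172 and 167 genes of 3781. The median log2 ratio over all genes, with 0.1 UMI per 10000 added to each level, was -0.05.

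The contractile genes stood out by count. Of 43 compared, 10 were at least 2 times higher in members (23.3%, all genes 3.69%) and 0 were lower (all genes 3.07%). Their median log2 ratio was 0.57. CRYAB, a small heat shock protein that binds desmin and actin, had the largest log2 ratio of the list, 2.59 ± 0.94 (SD over 6 ewes), with levels of 3.43 to 10.9 in members and 0.617 to 1.79 in pericytes. MYH11 followed with 1.97 ± 0.31, DSTN, an actin depolymerizing factor, with 1.73 ± 0.28, ITGA8, an integrin of contractile cells, with 1.62 ± 0.35, and RERGL, a Ras-like protein found in arterial muscle, with 1.52 ± 0.63. LMOD1, SYNM, MYL9 and CNN1 had log2 ratios of 1.21 to 1.35. The abundant contractile genes included several near equality, with log2 ratios of 0.17 for HSPB1, 0.15 for CALD1, caldesmon, and 0.12 for TPM2, a tropomyosin. MYL6, a myosin light chain, had 0.79, TPM1 0.56 and PPP1R12A, the targeting subunit of myosin phosphatase, 0.94. SYNM, synemin, was near equal in the 2 classes of HLS replicate 1 (0.240 and 0.239 UMI per 10000) and 2 times or more higher in members of each other ewe.

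Calcium handling and channel genes leaned the same way, with a median log2 ratio of 0.81. Of 13 compared, 0 were lower (all genes 3.07%) and 4 were at least 2 times higher in members (30.8%, all genes 3.69%). They were PLN (log2 ratio 1.78 ± 0.41), PLCB4, a phospholipase C that releases inositol trisphosphate (1.53 ± 0.53), KCNAB1, a beta subunit of voltage-gated potassium channels (1.41 ± 0.59), and SLC8A1, the sodium and calcium exchanger (1.28 ± 0.39). The plasma membrane calcium pump ATP2B1 and the inositol trisphosphate receptor ITPR1 had 0.75 and 0.81. The calcium pump ATP2A2, which PLN restrains, had a log2 ratio of 0.68 and was higher in 6 of 6 ewes. KCNMA1, the large conductance potassium channel, had a log2 ratio of 1.32 but stayed under the level limit, at 0.487 UMI per 10000.

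Of 10 genes of nitric oxide and cyclic nucleotide signalling, 3 were at least 2 times higher (all genes 3.69%) and 1 was lower (all genes 3.07%). The cyclic nucleotide phosphodiesterases PDE3A and PDE1A (log2 ratios 1.55 ± 0.46 and 1.26 ± 0.63) and the cyclic GMP dependent kinase PRKG1 (1.03 ± 0.40) were higher in members. GUCY1B1, a subunit of the nitric oxide receptor guanylate cyclase, was lower, at 1.10 to 2.14 UMI per 10000 in members and 1.76 to 4.80 in pericytes, and its partner GUCY1A1 had a log2 ratio of -0.43 ± 0.37. PRKG1 was thus higher in members and GUCY1B1 higher in pericytes.

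Of 8 vasoactive receptor genes compared, 1 was at least 2 times higher in members and 1 lower, 12.5% each way against 3.69% and 3.07% of all genes. RAMP1, which makes the receptor of calcitonin gene related peptide together with CALCRL, was at 0.659 to 0.947 UMI per 10000 in members and 0.0857 to 0.284 in pericytes, without overlap of any ewes. AGTR1, the angiotensin II receptor, was at 0.0284 to 0.111 in members and 0.362 to 0.713 in pericytes. EDNRA, the endothelin receptor of arterial muscle, had a log2 ratio of 0.96 ± 0.44, just under the 2 times limit and higher in 6 of 6 ewes, and EDNRB had -0.96 ± 1.02.

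Pericyte genes outside the rule were lower in members for 5 of 10 compared (all genes 3.07%) and higher for 0, with a median log2 ratio of -1.03. They were NDUFA4L2, a hypoxia-induced mitochondrial protein (-2.31 ± 0.60), CD248, endosialin (-2.21 ± 0.92), PDGFRB, the receptor of platelet-derived growth factor B (-1.62 ± 0.39), RGS5 (-1.52 ± 1.07) and EGFLAM (-1.39). MCAM, used as a perivascular marker, was at 2.78 ± 0.896 UMI per 10000 in members and 2.66 ± 1.29 in pericytes.

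Of 46 extracellular matrix genes, 15 were at least 2 times lower in members (all genes 3.07%) and 3 higher (all genes 3.69%). Their median log2 ratio was -0.66. POSTN, the matricellular protein periostin, had the lowest ratio of the genes named here, -4.27 ± 1.38, with levels of 0.185 to 1.47 in members and 5.62 to 24.6 in pericytes. The basement membrane collagen COL4A1 was at 5.93 to 14.9 in members and 16.3 to 68.8 in pericytes, and COL4A2 (log2 ratio -1.79 ± 0.51), LAMB1 (-1.42) and NID1 (-1.39), further basement membrane genes, were lower as well. The 3 higher genes were SPARCL1, an adhesion modulator of quiescent vessels (1.58 ± 0.35), MFAP4 of elastic fibres (1.30 ± 0.65) and COL8A1, a short chain collagen (1.29 ± 0.99). The fibrillar collagens COL1A2 and COL3A1 had log2 ratios of -0.59 and -0.73. DCN and COL1A1 had log2 ratios of -0.40 and -0.55 in the same cells. When members and pericytes with more than 3 UMI of PDGFRA, DCN and LUM were left out of both classes, an alternative chosen after seeing the data, the matrix median was -1.10 and the contractile median 0.61.

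**Figure D4:**
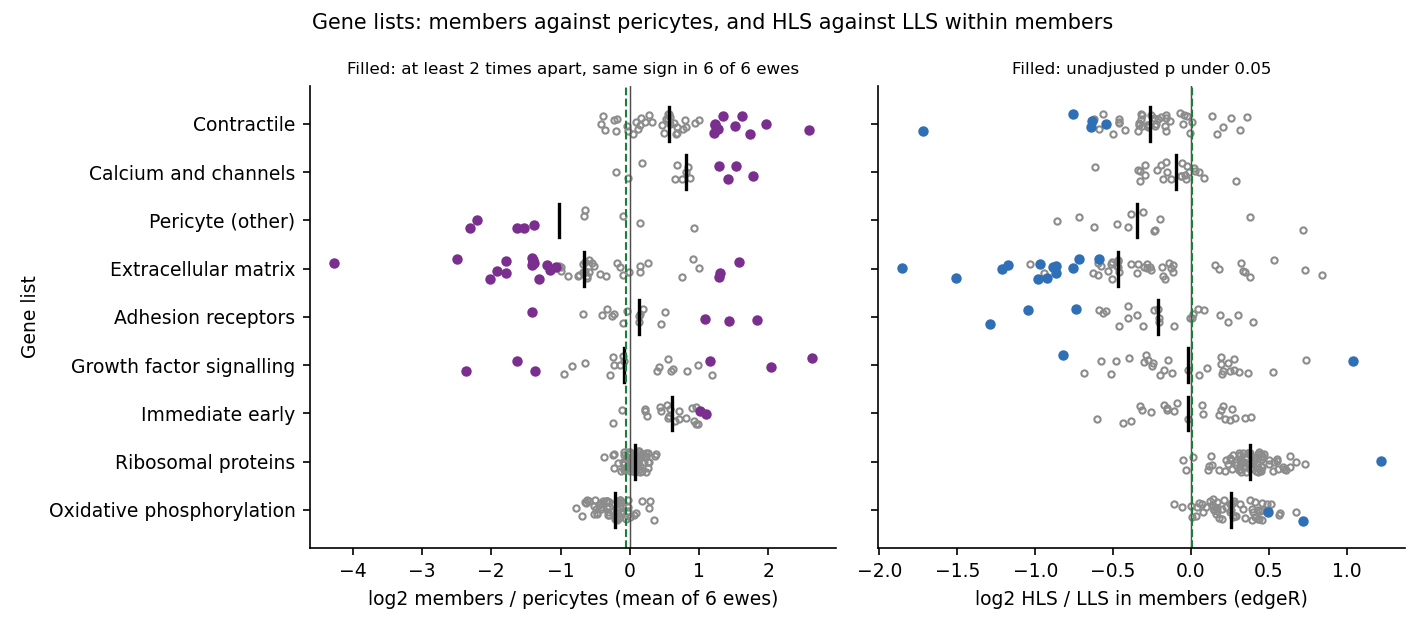
Log2 ratio of members to pericytes (left, mean of 6 ewes, 0.1 UMI per 10000 added) and of HLS to LLS within members (right, edgeR) for the genes of 9 lists, 1 point per gene; black lines are list medians and the green dashed line is the median of all genes. Contractile genes have a median of 0.57 on the left and -0.26 on the right, and extracellular matrix genes have -0.66 and -0.47.

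Of 23 growth factor and chemokine genes, 3 were higher (CXCL12, IGFBP2 and FGFR1) and 3 lower (IGF2, PDGFRB and IGF1), 13.0% each way against 3.69% and 3.07% of all genes, with a median log2 ratio of -0.08. CXCL12, a chemokine of arterial walls, was at 2.17 to 4.34 UMI per 10000 in members and 0.255 to 0.797 in pericytes, and IGFBP2, a binding protein of insulin-like growth factors, at 3.59 to 7.97 and 0.749 to 1.86. IGF2, a growth factor, was at 3.75 to 8.74 in members and 21.7 to 45.5 in pericytes. Of 29 transcription factors, MYOCD and the Notch target HES1 (log2 ratios 1.56 ± 0.50 and 1.19 ± 0.49) were higher and ID3 and NR2F1 were lower. These were 6.9% each way against 3.69% and 3.07% of all genes, with a list median of 0.04. HEY2, an arterial Notch target, had a log2 ratio of 1.85 ± 0.48 and was higher in 6 of 6 ewes but fell short of the level limit, at 0.493 UMI per 10000. KLF2, a factor induced by flow in vessels, had 1.0, while NR2F2, the venous factor COUP-TFII, and MEF2C, a muscle factor, had 0.04 and 0.40. The receptors NOTCH3 and NOTCH1 had log2 ratios of -0.51 and -1.25. Of 17 adhesion receptors, SDC4, ITGA7 and CDH13 were higher (17.6%, all genes 3.69%) and ITGA1 was lower (5.88%, all genes 3.07%).

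Among genes with a gene name, the largest ratios were those of ALKAL2, the ligand of the receptor tyrosine kinase ALK (3.37 ± 0.54), ADIRF, an adipogenesis factor (3.15 ± 0.81), and DAPL1 (2.85 ± 0.32). ALKAL2 was at 0.678 to 1.63 UMI per 10000 in members and at most at 0.0294 in pericytes, where LLS replicate 2 was at 0. CLSTN2, a calsyntenin, had 2.77 ± 0.74, and CSRP2, a LIM protein of smooth muscle, 2.72 ± 0.57, with 5.64 to 9.46 in members and 0.803 to 1.62 in pericytes. NDRG4, S100A4, DIPK1C, NET1, FRY, SIPA1L2, PPM1L and SLIT3, a guidance ligand, had ratios of 2.05 to 2.40. On the side of the pericytes, COLEC11, a lectin, had -3.00 ± 0.81, and TAC1, the precursor of substance P, had -2.67 ± 0.87 with 0.126 to 0.872 in members and 1.07 to 3.91 in pericytes. COL5A3, CPM, CCND1, LOXL2, PLAU and LAMA2 had ratios of -2.50 to -1.79.

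Of 9 cell cycle genes compared, TPX2 and PCNA were at least 2 times lower in members (22.2%, all genes 3.07%) and 0 were higher. The list had a median log2 ratio of -1.29. Summed over 20 cell cycle genes, members stood at 2.00 to 10.4 UMI per 10000 and pericytes at 8.0 to 31.2, and in HLS replicate 1 the members were the higher class, at 10.4 against 8.0. Immediate early genes, which many stimuli induce, were higher for 2 of 22 (NR4A1 and NR4A3, all genes 3.69%), with a median of 0.61. Their summed level was 197 to 304 UMI per 10000 in members and 144 to 194 in pericytes. Stress genes (0 of 13 past the limit, median -0.32), TGF beta and BMP genes (0 of 11, median -0.13), iron and antioxidant genes (0 of 14, median 0.12), ribosomal protein genes (0 of 73, median 0.07) and oxidative phosphorylation genes (0 of 56, median -0.21) held no gene past the 2 times limit.

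The comparison of HLS with LLS within the members asked whether these cells differed with litter size. UMI of the members were added up per ewe, and 7430 genes entered edgeR's quasi-likelihood test. No gene passed an adjusted p of 0.05 (0.0%), 312 genes had an unadjusted p under 0.05 (4.2%), of which 110 were higher and 202 lower in HLS, and DESeq2 passed 3 genes. Without the TMM factors, which scale for composition, 61 were higher and 249 lower. The groups did not overlap for 775 genes (10.4%), of which 256 were higher in HLS (3.45%) and 519 lower (6.99%). The 3 genes of DESeq2 were CH25H, RERGL and SERPINF1, all lower in HLS.

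CH25H, which makes 25-hydroxycholesterol, had the smallest p. It was at 0.875, 0.951 and 0.905 UMI per 10000 in HLS replicates 1 to 3 and at 2.59, 3.06 and 2.27 in LLS replicates 1 to 3. Every HLS ewe was below every LLS ewe, and the ewes within a group lay close together. The log2 fold change of HLS to LLS was -1.45 ± 0.22 (SE), with an edgeR adjusted p of 0.125, and -1.50 without HLS replicate 1. Of 22 alternatives in edgeR or DESeq2, 2 had an adjusted p under 0.05. The range was from 8.95e-05, in edgeR without a filter on low counts, to 0.993. In the pericytes CH25H was at 0.902 to 1.26 in HLS and 1.26 to 1.80 in LLS.

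RERGL was at 0.144, 0.397 and 0.305 in HLS replicates 1 to 3 and at 0.994, 1.03 and 0.833 in LLS replicates 1 to 3, again without overlap. Its log2 fold change was -1.72 ± 0.30 (edgeR adjusted p = 0.263), and -1.46 without HLS replicate 1. Of 22 alternatives in edgeR or DESeq2, 3 had an adjusted p under 0.05. The range was from 3.96e-05, in edgeR without a filter on low counts, to 0.988. TGFB3, a transforming growth factor beta ligand (-1.29 ± 0.27), S100A2, a calcium-binding protein (-1.55 ± 0.33), and COL8A1 (-1.85 ± 0.40) followed, each lower in all 3 HLS ewes than in any LLS ewe and each with an edgeR adjusted p of 0.587. The smallest p of higher genes belonged to CSKMT, a mitochondrial methyltransferase, with 0.724 to 0.837 in HLS and 0.390 to 0.484 in LLS (log2 fold change 0.97 ± 0.26, edgeR adjusted p = 0.97). LOC114109642, LOC101115083, PPIL3 and CHAMP1 came next, with log2 fold changes of 1.02 to 2.02 and edgeR adjusted p of 0.97. The largest, 2.02 for LOC114109642, was 1.02 without HLS replicate 1.

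**Figure D5:**
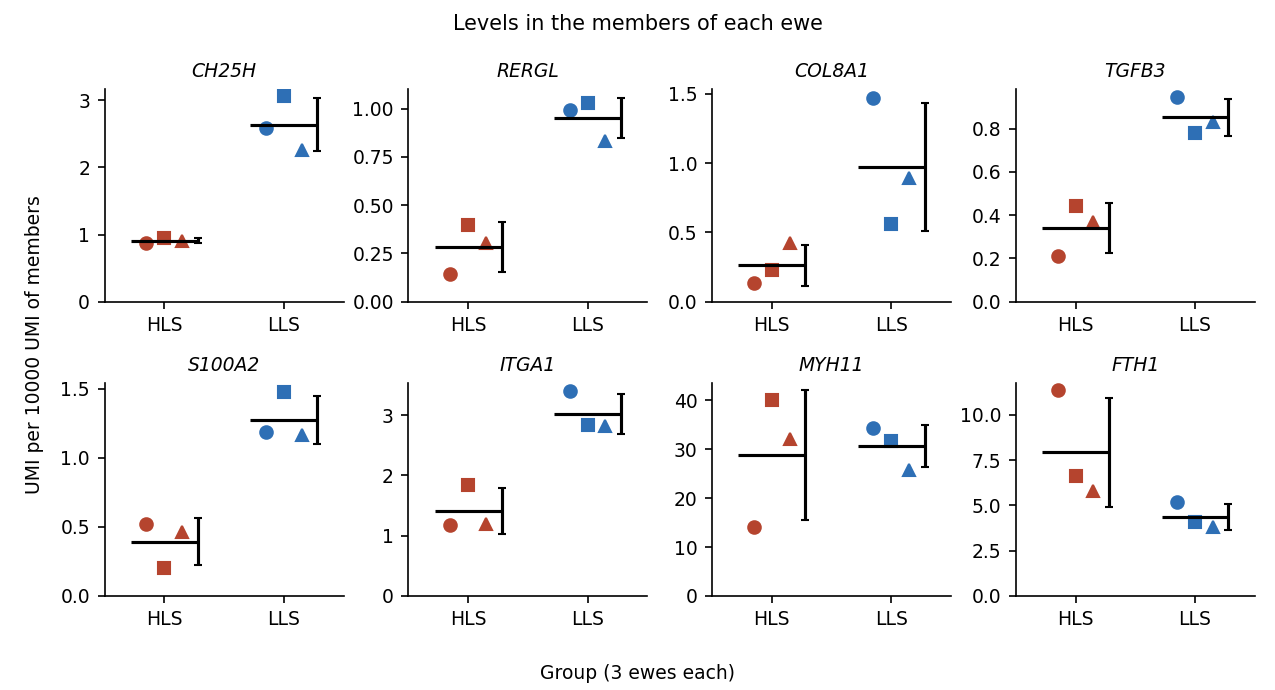
Level of 8 genes in UMI per 10000 UMI of the members, 1 point per ewe (circle, square and triangle for replicates 1, 2 and 3), with the mean and SD of 3 ewes. CH25H lies at 0.875 to 0.951 in HLS and at 2.27 to 3.06 in LLS, whereas MYH11 overlaps between the groups.

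The extracellular matrix list lay on the lower side in HLS. Of 52 matrix genes tested, 0 passed the adjusted p, 13 had an unadjusted p under 0.05 and were lower in HLS (all genes, 2.72%), and 0 were higher. The groups did not overlap for 17 matrix genes, all lower in HLS (all genes, 6.99%), and the median log2 fold change was -0.47 against 0.01 over all genes. COL12A1, a fibril-associated collagen, was at 2.54 to 3.02 in HLS and 4.61 to 7.69 in LLS. THBS1, thrombospondin 1, was at 3.77 to 4.26 in HLS and 6.29 to 8.76 in LLS, and COL18A1, a basement membrane collagen, at 1.56 to 2.04 and 2.89 to 4.12. COL15A1, LAMA3, LAMA4, BGN, LOX, VCAN, LAMC1, THBS2, MFAP4 and COL8A1 were the other genes. Summed over 58 matrix genes, members stood at 129 to 155 UMI per 10000 in HLS and 158 to 239 in LLS, and the median without HLS replicate 1 was -0.66. The median moved toward 0 under a pair of alternatives, to -0.12 with NTRK3 left out of the rule and to -0.18 without the members with more than 3 UMI of PDGFRA, DCN and LUM. The stromal genes themselves summed to 24.5 to 31.7 in HLS and 23.7 to 48.5 in LLS, and their part in the matrix difference was not tested further. In pericytes of the same ewes the matrix genes had a median of -0.02, with 26 of 53 higher in HLS (all genes tested in pericytes, 5385 of 10699).

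Contractile genes had a median of -0.26, with 39 of 46 lower in HLS (all genes, 3639 of 7430). At an unadjusted p under 0.05, 5 were lower (all genes, 2.72%), and 13 did not overlap, all lower (all genes, 6.99%). The 5 were RERGL, ITGA8, TINAGL1, DES and CAVIN3. Summed over the 47 contractile genes of the list, members stood at 205 to 252 UMI per 10000 in HLS and 260 to 307 in LLS. MYH11 (log2 fold change -0.05 ± 0.33), PLN (-0.06 ± 0.26) and MYL9 (0.01 ± 0.27) overlapped between the groups, and MYOCD had -0.64 ± 0.25 with 0.50 to 0.812 in HLS and 0.963 to 1.53 in LLS. In HLS replicate 1 MYH11 was at 14.1, below each other ewe. The pericytes of the same ewes leaned the same way. Their contractile genes had a median of -0.16, with 34 of 44 lower in HLS (all genes tested in pericytes, 5314 of 10699). At an unadjusted p under 0.05, 5 were lower (all genes tested in pericytes, 177 of 10699).

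Other members of the lists that differed in level without passing the adjusted p were mostly lower in HLS. Over all 7430 genes tested, 6.99% were lower in HLS without overlap and 3.45% higher. The integrins ITGA1 (log2 fold change -1.04 ± 0.24, with 1.17 to 1.84 against 2.83 to 3.41) and ITGAV and the cadherin CDH13 were lower without overlap. TGFB2 and GUCY1A1 were lower without overlap, as was SOD3, an extracellular superoxide dismutase (-1.15 ± 0.29, with 0.356 to 0.766 against 0.978 to 1.78). Of 17 TGF beta and BMP genes 4 were lower at an unadjusted p under 0.05, and 0 of 24 calcium and channel genes were (all genes, 2.72%). FTH1, the ferritin heavy chain, was at 11.3, 6.61 and 5.82 in HLS replicates 1 to 3 and at 5.16, 4.09 and 3.78 in LLS replicates 1 to 3, with a log2 fold change of HLS to LLS of 0.99 ± 0.32 (SE, edgeR adjusted p = 0.97) and 0.51 ± 0.20 (adjusted p = 0.891) without HLS replicate 1. Ribosomal protein genes were higher in HLS for 72 of 74 (median 0.38) and oxidative phosphorylation genes for 57 of 59 (median 0.26), against 3791 of 7430 over all genes (median 0.01). Without HLS replicate 1 the counts were 53 of 74 (median 0.06) and 39 of 59 (median 0.07), against 3878 of 7682 over all genes. Ribosomal protein genes took 22.3%, 15.6% and 15% of member UMI in HLS replicates 1 to 3 and 15.2%, 13.4% and 15.1% in LLS replicates 1 to 3. Of pericyte UMI they took 22.6% in HLS replicate 1 and 13.3% to 14.6% in the other ewes. The part of HLS replicate 1 in FTH1 and in both lists was not tested beyond leaving it out.

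Whether the difference between groups was the same in members and pericytes was tested as an interaction over 12 sums of 6 ewes. No gene of 10027 passed an adjusted p of 0.05 (0.0%), 348 had an unadjusted p under 0.05 (3.47%) and DESeq2 passed 1, SERPINF1. SERPINF1, pigment epithelium derived factor, was at 0.625 to 0.922 in members of HLS ewes and 1.38 to 4.26 in those of LLS ewes, with LLS replicate 2 the highest, and pericytes overlapped at 1.45 to 4.12 and 1.0 to 3.31. The sign of its interaction turned when members with more than 3 stromal UMI were left out, from a log2 value of -2.26 to 1.12. NMB, CHI3L1, LOC101112891 and MFAP4 had the next smallest p on the negative side, where HLS against LLS was lower in members than in pericytes. On the other side TOP2A, CDCA2, CENPF, AURKA and FAAP24 were the 5 genes of smallest p. All 20 cell cycle genes had a positive interaction, 9 of them at an unadjusted p under 0.05. Over all genes 5131 of 10027 were positive, 166 of them at an unadjusted p under 0.05. Within pericytes 19 of 20 cell cycle genes were lower in HLS (all genes tested in pericytes, 5314 of 10699), with a median log2 fold change of -0.34. TOP2A, a topoisomerase of dividing cells, was at 1.16, 1.08 and 0.766 in members of HLS replicates 1 to 3 and at 0.0947, 0.0835 and 1.08 in those of LLS replicates 1 to 3, so that LLS replicate 3 overlapped the HLS ewes. In members that held at least 2 UMI of the 4 genes of the rule the cell cycle median of HLS against LLS was -0.04 over 6 genes, against 0.61 over 13 in all members. The latter was 0.18 without LLS replicate 1 and 1.61 without LLS replicate 3.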

How the data were processed

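The authors mapped the reads of 6 libraries with Cell Ranger (version 5.0.0 per the file headers), which uses the STAR aligner, and deposited raw UMI counts per gene and barcode. The genome build is not given in the sources used here. Of 52290 deposited barcodes, 38465 passed. Mitochondrial genes were those whose names start with KEF53_. Doublets were called per ewe from simulated pairs (2 per barcode, 0.8% expected per 1000 barcodes) and left out only as an alternative.

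UMI were summed over the members of each ewe. Levels are UMI per 10000 summed UMI. They are not corrected for gene length, so levels of different genes were not ranked. Groups were compared on 3 against 3 sums in edgeR 4.0.16 (R 4.3.3, quasi-likelihood fit) with filterByExpr, TMM factors and Benjamini-Hochberg adjustment over all tested genes, with DESeq2 1.42.0 as an alternative. The interaction used ewe, class and class by group. Shares were compared by exact permutation in scipy 1.17.1. Errors are SD over ewes or SE. The SE of a log2 fold change was taken as its absolute value divided by the square root of edgeR's F statistic. The paper calls the ewes randomly selected and grouped them by litter size over 3 consecutive parities. The p values weigh the group difference against the variation between these ewes. The edgeR step was tested on simulated counts of 7430 genes, 200 of them changed. At an adjusted p under 0.05 it recovered 31% of the 2-fold and 96% of the 4-fold changes, with 17 false calls. The false calls were a larger share of all calls than the 0.05 aimed at. Most changes of 2 times would thus be missed with this number of ewes.

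Members, gene lists and tests were chosen with earlier results of these data known. Named were the genes of the rule, marker genes, the more abundant list genes, the 15 largest ratios to pericytes in each direction among genes with a name, and the 5 smallest p in each direction of a test without calls. Members of lists outside these were named where they answer a question about the label or are counted in a sentence, with their values seen. Some genes that this rule names are not reported here. The replicate number did not pair the ewes (correlations of same-numbered ewes' deviations -0.01 to 0.02). No sequence is printed, because no genome or sequence table of this organism was used here.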

Additional observations from a re-analysis of the deposited data

Results flagged for a closer look

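Across 79 values compared over the 6 ewes (shares, depth, ribosomal share and the log2 ratios of single genes to pericytes), 3 had an ewe whose gap to the nearest other ewe passed the limit of Dixon's test as a share of the whole range. Chance flags about 1 in 20 such sets. Each of the 3 was HLS replicate 1. Ribosomal protein genes took 22.3% of its member UMI, with 15.6% in the next ewe. They also took 22.6% of its pericyte UMI, against at most 14.6% in the other ewes. The log2 ratio of CLSTN2 to pericytes was 1.36 in HLS replicate 1 and at least 2.86 in the other ewes. The log2 ratio of SYNM, synemin, to pericytes was 0.00761 there and at least 1.32 in the other ewes. The cause was not tested.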

How the results depend on the processing

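The members numbered 628 with at least 2 UMI of the 4 genes of the rule and 388 after every barcode was thinned to 1000 UMI, and 684 to 886 when 1 ewe was left out. The thinning to 1000 UMI only chose the classes, and levels were then summed from all UMI of the chosen barcodes. The difference in share was 0.614 to 1.83 points of passing barcodes and 2.95 to 22.4 points of mural barcodes when 1 ewe was left out, and HLS replicate 3 gave the lowest value of each. Genes at least 2 times apart from pericytes in all ewes, 247 in the main comparison, were 484 with at least 2 UMI, 597 after thinning, 625 without members of more than 3 stromal UMI, 54 with 1 UMI per 10000 added, 145 at a level of at least 1 and 386 with each barcode weighted equally. A pair of alternatives chosen after seeing the data gave 481 (both classes stricter) and 373 (stromal UMI limited in both), and leaving out 1 ewe gave 230 to 339. With stromal UMI limited in both classes, 115 of the 135 higher and 71 of the 112 lower genes of the main comparison were still called. Of 1628 values for 74 genes against pericytes, 0 called genes changed sign.

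For HLS against LLS, edgeR called 0 genes, and 0 with the sums of the ewes thinned to the smallest sum. DESeq2 called 3. With the classes chosen after thinning edgeR called 1, without a filter on low counts 56, and with 1 ewe left out 0 to 2. The 2 were TOP2A and GSTA1, without LLS replicate 3. The interaction called 0 genes, 26 without the filter, 1 with DESeq2 and 0 to 2 with 1 ewe left out, namely SERPINF1 without HLS replicate 2, and CENPF and UBE2C without HLS replicate 3. The interaction of SERPINF1 reversed to 1.97 with the classes chosen after thinning and to 1.12 without members of more than 3 stromal UMI. That of CHI3L1 reversed to 0.43 with at least 2 UMI. The cause of these shifts was not tested. The replicate block, fitted although the replicate numbers did not pair the ewes, left 0 genes with an adjusted p under 0.05 and 324 with an unadjusted p under 0.05. The smallest sum of an ewe held 359361 UMI.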
